A study of Mus musculus with 38 samples.

Results

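The extracellular matrix genes described here are 42 genes whose names on the array equal a chosen list of matrix glycoproteins, proteoglycans and remodelling enzymes, out of 29411 gene names, and all 42 were among the 21856 genes tested. Their mRNA was measured in brown adipose tissue of C57BL/6J mice with Agilent 1-colour arrays. Mice were weaned at 3-4 weeks of age and then assigned to 5 groups. The LFC group received the normal diet with 10% of its calories from fat, and the HFC group received the HFHSD, a diet with 60% of calories from fat and added sucrose. The HF5, HF20 and HF75 groups received the same HFHSD together with 5, 20 or 75 µg of the ethano-botanical formulation KAL-1, so each KAL-1 group carries the same diet as HFC. LFC and HFC have 10 arrays each, taken on Days 6, 10 and 14 and at Weeks 0, 3, 6, 9, 12, 15 and 18, where weeks are counted from day 14. Each KAL-1 group has 6 arrays, at Weeks 3 to 18. The labels give 1 array for each group and time point, so the time points serve as replicates in the tests below, and the p-values measure the spread between such arrays.

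The matrix is the scaffold outside cells. Collagen fibrils and elastic fibres carry its load, glycoproteins and small proteoglycans coat and connect these fibres and bind growth factors, lysyl oxidases cross-link them, and metalloproteinases cut them under the restraint of their tissue inhibitors. In adipose tissue fibroblasts, progenitors, vascular cells and adipocytes all make parts of it, and the matrix is remodelled as fat cells enlarge and vessels grow. In bulk tissue, fewer cells of a type and less RNA per cell cannot be told apart.

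A level is the log2 intensity of the brightest probe of a gene on average, minus the 75th percentile of its array, so 0 is the 75th percentile and a step of 1 is a doubling. A change is called when its adjusted p is under 0.05, from limma with Benjamini-Hochberg adjustment over all 21856 genes. Levels of different genes come from different probes and are not ranked against each other. Of 10 brown adipocyte markers, 8 were well above background on every array. The summed level of these markers was 6.98 to 10.35 on 37 arrays and 3.18 on the HF75 array of Week 3. On that array the summed fibroblast and macrophage markers, 6.92 and 5.01, were the highest of all 38 arrays, and 19 of the 42 matrix genes had their highest level of all. The arrays also differed in brightness, with a 75th percentile between 36.6 and 1315 intensity units. On 10 arrays it was above 600 (LFC Weeks 0, 3, 9 and 12, HFC Week 3, HF20 Weeks 3, 6, 12 and 15, and HF75 Week 3), and these are called bright below. The HFC array of Day 10 lay just under that boundary at 597. Summed skeletal muscle markers ran from -0.95 to 9.99 across arrays.

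Promoters are shown for 4 genes on which the results turn. Mmp3 encodes stromelysin, a protease with many matrix substrates, and was the only member with a called trend over days, a choice made after its values were seen. Fmod, Aebp1 and Bgn encode fibromodulin, the collagen-binding AEBP1 protein and biglycan, and were among the 5 members with the smallest p for a diet difference that moved with time, none of them called. Each line gives the 250 bases before the RefSeq start on the plus strand of GRCm38.p6, at chr9:7445572-7445821, chr1:134037004-134037253, chr11:5861616-5861865 and chrX:73483351-73483600 in the order printed, with motif matches in capitals.
Mmp3: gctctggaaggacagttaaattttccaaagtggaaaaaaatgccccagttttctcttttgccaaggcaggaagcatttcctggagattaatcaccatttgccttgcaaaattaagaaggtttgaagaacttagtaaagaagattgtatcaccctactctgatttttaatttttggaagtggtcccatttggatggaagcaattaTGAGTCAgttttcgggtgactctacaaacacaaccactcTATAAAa
Fmod: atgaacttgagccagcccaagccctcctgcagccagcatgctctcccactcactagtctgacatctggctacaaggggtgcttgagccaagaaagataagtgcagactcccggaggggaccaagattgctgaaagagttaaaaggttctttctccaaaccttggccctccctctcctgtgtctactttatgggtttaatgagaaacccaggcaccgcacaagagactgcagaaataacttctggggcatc
Aebp1: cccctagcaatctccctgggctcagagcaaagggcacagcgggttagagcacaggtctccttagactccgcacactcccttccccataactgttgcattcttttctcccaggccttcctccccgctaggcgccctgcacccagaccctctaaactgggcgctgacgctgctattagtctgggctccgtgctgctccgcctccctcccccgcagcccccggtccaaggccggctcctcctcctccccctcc
Bgn: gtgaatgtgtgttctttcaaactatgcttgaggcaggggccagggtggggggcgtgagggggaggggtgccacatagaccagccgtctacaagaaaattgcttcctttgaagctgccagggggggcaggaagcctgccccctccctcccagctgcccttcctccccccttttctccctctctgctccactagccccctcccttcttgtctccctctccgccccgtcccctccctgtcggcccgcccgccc
The motifs searched on both strands were the TATA box letters TATAAA, the TEAD factor motif GGAATG, the AP-1 motif TGANTCA and the CRE motif TGACGTCA. The Mmp3 promoter held TGAGTCA from position -46 and TATAAA from position -7, counted from the start. None of the 4 motifs lay in the other 3 windows, which says only that these letters are not in them. A promoter was matched for 27 of the 42 members. A member was counted when any of its promoters held the motif, while the percentages are over single promoters, so these are unlike measures. TATAAA was found in 8 of them (Postn, Thbs2, Tnc, Cyr61, Ogn, Aspn, Mmp3 and Adamts1) and in 12.4% of all 32851 promoters. GGAATG was found in 3 (Cyr61, Ogn and Timp1) against 12.6%, TGANTCA in 3 (Tnxb, Efemp1 and Mmp3) against 6.75%, and TGACGTCA in 0 against 1.55%. These matches are a description of the letters, not of binding.

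The adhesive glycoproteins link cells to the matrix. Fibronectin (Fn1) ran from -2.86 to 1.33 with a median of -0.63 over the 38 arrays, periostin (Postn) from 0.52 to 4.04 with a median of 2.35, and tenascin XB (Tnxb) from -0.53 to 2.77 with a median of 0.85. These were well above background on every array. Thrombospondin genes Thbs1 and Thbs2, whose products also restrain vessel growth, spanned -5.07 to 2.58 and -4.87 to -1.24, and tenascin C (Tnc) spanned -5.68 to 0.46. Thbs1 had the widest spread of all members (SD 1.96).

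Among the matricellular and mineral-binding proteins, Sparc, a collagen-binding glycoprotein, had one of the narrowest ranges, 4.48 to 6.81 (SD 0.59, n = 37, since a spot on the LFC array of Day 14 was left out). Ctgf and Cyr61, the CCN family members known for their response to mechanical load, spanned -1.35 to 4.33 and -0.56 to 5.78. Mgp, the matrix Gla protein that holds back calcification, spanned 0.88 to 5.06. Aebp1 spanned -5.56 to -0.93 and was well above background on 29 of 38 arrays. The 6 small leucine-rich proteoglycans, which bind collagen fibrils and set their spacing, were biglycan (Bgn, -3.47 to 0.42), decorin (Dcn, 3.44 to 6.79), lumican (Lum, -0.89 to 4.21), fibromodulin (Fmod, -6.06 to -1.03), osteoglycin (Ogn, -1.14 to 2.82) and asporin (Aspn, -2.94 to 1.0). Dcn, Lum and Ogn were well above background on every array, and Fmod on 29.

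The elastic fibre genes encode the microfibril proteins Fbn1 (-2.65 to 2.12) and Fbn2 (-8.40 to -1.72), elastin itself (Eln, -4.34 to 1.75), and the fibulin family that helps to assemble the fibre. The fibulins spanned -1.82 to 3.42 for Efemp1, 0.81 to 3.05 for Efemp2, -5.38 to 1.99 for Fbln1, 0.86 to 5.51 for Fbln2 and -7.84 to -2.29 for Fbln5. Fbn2 was well above background on only 7 arrays and Fbln5 on 9, so many of their values are near the detection limit. Efemp2 had the narrowest spread of all members (SD 0.57, n = 37). The cross-linking enzymes Lox (-3.51 to 0.27), Loxl1 (-2.96 to 1.22) and Loxl2 (-0.67 to 3.30) and the collagen chaperone Serpinh1 (3.76 to 6.64) completed the fibre-building genes.

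The metalloproteinases were the gelatinases Mmp2 (-2.93 to 1.38) and Mmp9 (-6.58 to -0.23), the stromelysins Mmp3 (-2.99 to 3.10) and Mmp11 (-2.75 to 1.29), the membrane-bound Mmp14 (-0.87 to 3.79) and Mmp19 (-5.96 to -0.77). Mmp3, Mmp11 and Mmp14 were well above background on every array, and Mmp19 on 22. Their inhibitors spanned -2.63 to 1.77 for Timp1, 1.08 to 5.91 for Timp2, 3.11 to 7.20 for Timp3 and 0.26 to 5.69 for Timp4. The ADAMTS proteases, of which Adamts1 and Adamts5 cut proteoglycans and Adamts2 trims procollagen, spanned 0.28 to 6.20, -0.45 to 2.22 and 0.03 to 4.25. In all, 25 members were well above background on every array.

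**Figure D1:**
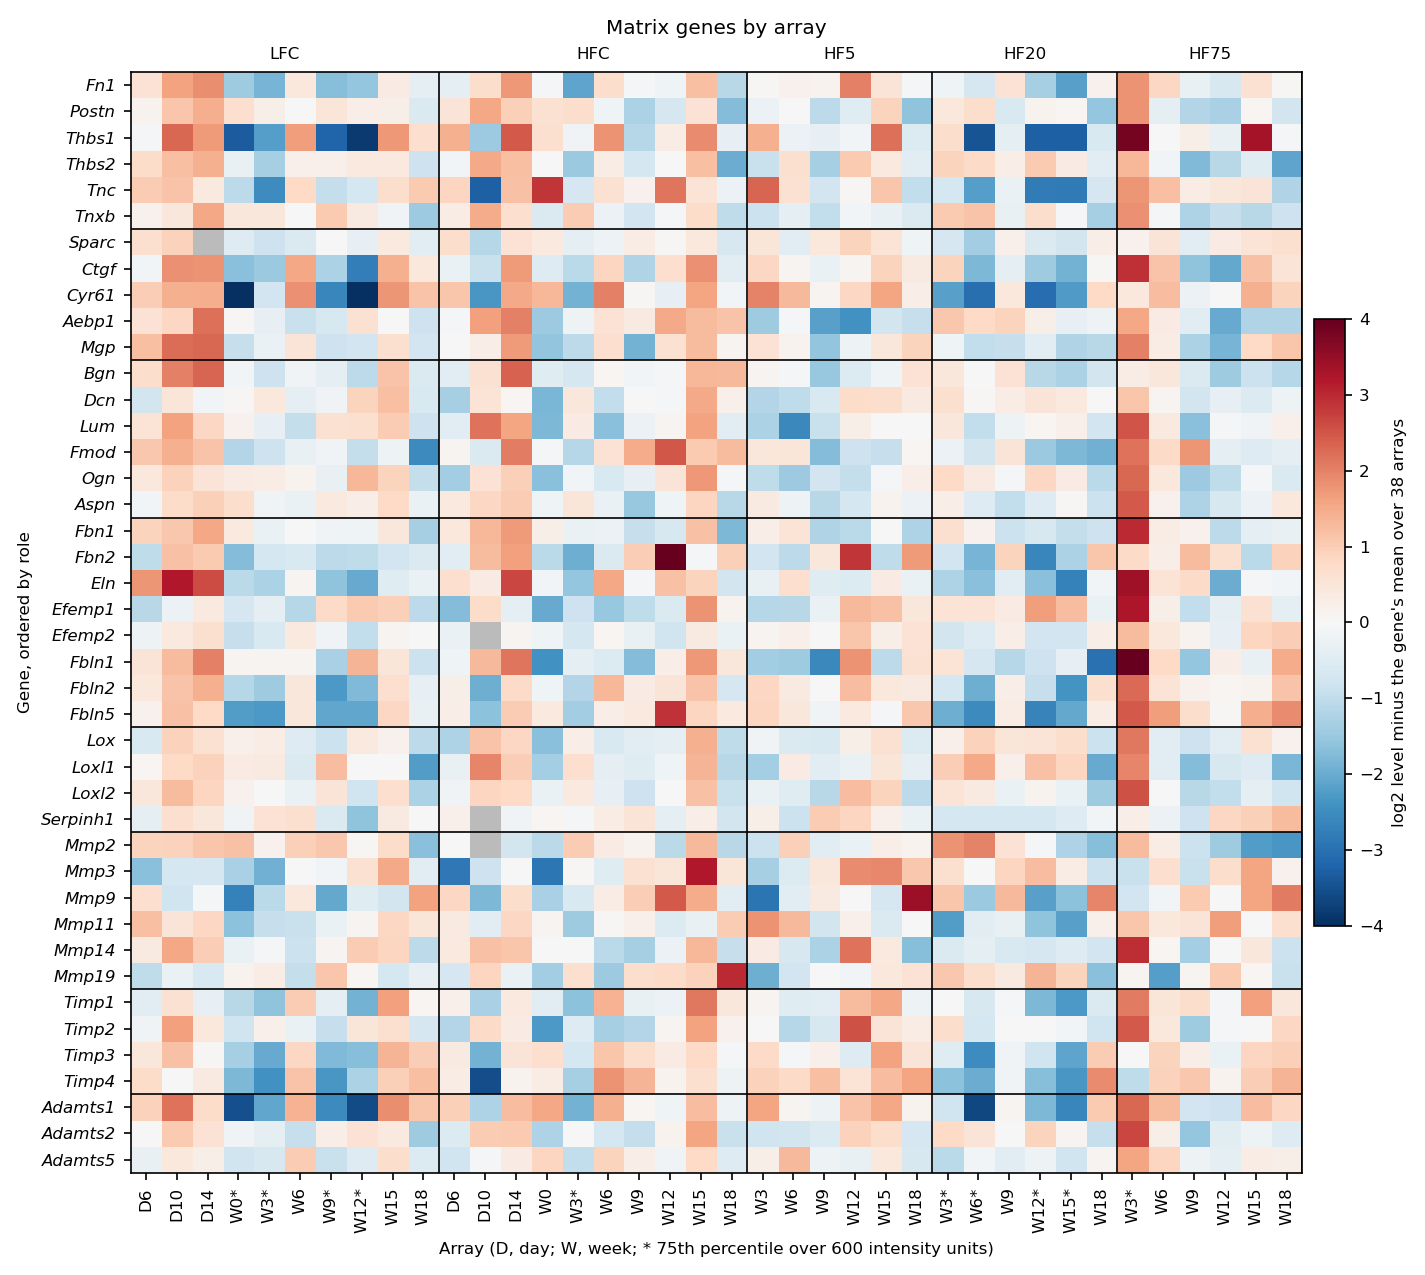
Each cell is the level of 1 matrix gene on 1 array minus that gene's mean over the 38 arrays (log2, colour scale from -4 to 4, grey where a spot was left out), with genes ordered by role and arrays by group and time, and an asterisk marking bright arrays. Cyr61, Thbs1, Adamts1 and Timp4 are low on most bright arrays, and for 19 of the 42 genes the HF75 array of Week 3 has the highest level of all.

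For 16 members the array carries more than 1 probe. The second probe of Fbln1 followed the probe used with r = 0.97 across the 38 arrays, that of Adamts1 with r = 0.94 and that of Lox with r = 0.90. Others did not: the second probe of Sparc gave r = 0.22, that of Mmp14 r = 0.36, that of Adamts2 r = 0.26, and 1 of the other probes of Loxl2 r = -0.18. These correlations are across arrays that share brightness and tissue makeup, and are descriptions only. The members of that kind are reported through the brighter probe, and a result for them rests on it.

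Whether the high-fat diet changed these genes was first asked over all 10 time points, as HFC against LFC with the time point as a block. No member was called, and the background was 0% of the 21856 genes (0 of 21856). At an unadjusted p under 0.05 limma gave 0 members and 1587 genes (7.26%). Of the members, 23 were higher and 19 lower in HFC, with a median change of 0.05, against 0.09 over all genes tested. The smallest p belonged to Fbn2, whose levels were -7.50 to -4.60 with a median of -6.51 in LFC and -7.72 to -1.72 with a median of -5.35 in HFC. It was well above background on only 2 LFC and 3 HFC arrays, and its LFC range lay within its HFC range. The fitted difference of 1.0 (SE 0.48, adjusted p = 0.644) thus compares mostly signals that are not well above background, and it was 0.54 without Week 12. Fmod ran from -6.06 to -2.08 with a median of -3.76 in LFC and from -4.65 to -1.03 with a median of -2.69 in HFC. Its change was 0.98 (SE 0.52, adjusted p = 0.644), higher in 7 of 10 pairs, and the groups overlapped. Aebp1 changed by 0.53 (SE 0.32, adjusted p = 0.644) and Mmp9 by 0.78 (SE 0.48, adjusted p = 0.644), each higher at 7 of 10 time points. Mmp2 changed by -0.64 (SE 0.35, adjusted p = 0.644), lower in 6 of the 9 pairs left after its spot on the HFC array of Day 10 was dropped. LFC held 4 bright arrays of 10 and HFC 1. With the brightness class as a term the changes were 0.51 for Fmod (adjusted p = 0.951) and -0.24 for Mmp2 (0.958). They were 0.32 for Fbn2 and 0.05 for Mmp9. The members then split into 18 higher and 24 lower, with a median of -0.03.

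Mice mature over the course, and the slope of each gene on days was fitted in the 20 LFC and HFC arrays, with diet as a term. Slopes are log2 units per 100 days. Mmp3 rose, and it was the only member called, where 1.21% of all genes tested were called (168 higher and 97 lower), so the share of members called was near the background. In the first 14 days its level was -2.99 to -0.10 with a median of -1.17 on the 8 arrays of both diets. In Weeks 12 to 18 it was -0.55 to 3.10 with a median of 0.44 on 6 arrays. Of the early arrays the highest lay above the lowest late one, so the sets overlapped in part. The slope was 2.08 (SE 0.49, adjusted p = 0.0459), with 1.50 in LFC and 2.66 in HFC taken alone. Day and scan day cannot be told apart here, since arrays of most time points were scanned on 1 day. The LFC and HFC arrays of a time point share age and sampling, and with the time point as a random block the adjusted p of Mmp3 was 0.124, no member was called and 2 of all genes were. With scan day as a random block its adjusted p was 0.133. It kept its call when Day 14 was left out and lost it when any of the other 9 time points was, with an adjusted p up to 0.108 without Week 15. Over its 26 alternatives the adjusted p ran from 0.0107 with array weights to 1 in the LFC arrays alone, and it was under 0.05 in 7 of them. Under normexp background correction, which here adds an offset of 50 intensity units to every signal so that low signals differ less, the slope was 1.06, still called.

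The next smallest p values belonged to genes that were lower late. Periostin (Postn) averaged 3.12 ± 0.48 (SD, n = 8) in the first 14 days and 1.92 ± 0.85 (SD, n = 6) in Weeks 12 to 18. Its slope was -1.17 (SE 0.31, adjusted p = 0.0557), and the early levels of 2.38 to 3.79 overlapped the late ones of 0.52 to 2.81. Fibrillin (Fbn1) averaged 0.10 ± 0.56 (SD, n = 8) early and -1.23 ± 1.11 (SD, n = 6) late, with a slope of -1.25 (SE 0.36, adjusted p = 0.0696). Tnxb had a slope of -0.88 (SE 0.33, adjusted p = 0.139), and Mmp19 one of 1.0 (SE 0.43, adjusted p = 0.193). Postn was called without Day 6 (adjusted p = 0.0458, from 0.0176 to 1 over its alternatives) and Fbn1 without Week 15 (adjusted p = 0.0257, the lowest over its alternatives). By role, 5 of 6 adhesive glycoproteins had negative slopes (3 of 6 under normexp and all 6 under quantile normalization), none called. The slopes of Lox, Loxl1, Loxl2 and Serpinh1 were negative for 4 of 4 genes (3 of 4 under normexp, Lox turning), and those of the TIMP genes positive for 4 of 4 (2 of 4 under normexp). Over the 42 members 18 slopes were positive and 24 negative, with a median of -0.19 against 0.06 over all genes. That median moved to 0.18 without Day 14, to 0.05 without Week 18 and to 0.0056 without Day 10. Scaling moved the median of all genes as well, to -0.12 under quantile normalization and 0.43 under normexp, so these directions are relative to each array's 75th percentile.

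**Figure D2:**
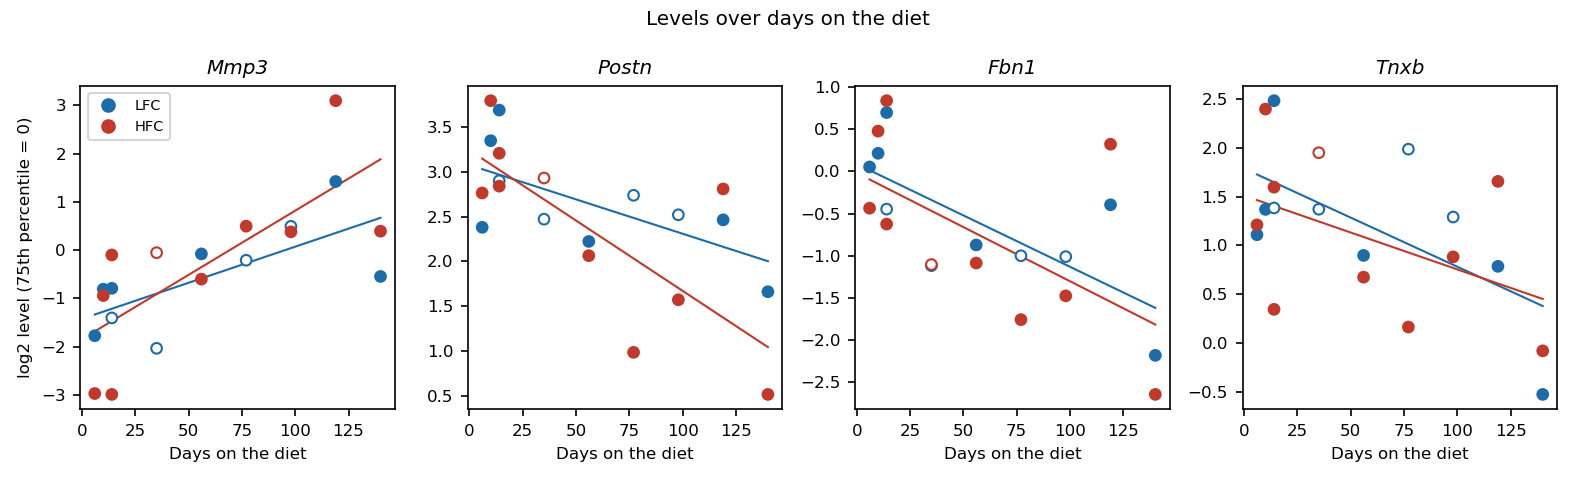
Levels (log2, with the 75th percentile of the array at 0) of Mmp3, Postn, Fbn1 and Tnxb against days on the diet, 1 point per array, with the fitted line of each diet and bright arrays as open points. Mmp3 is the called gene, with slopes of 1.50 in LFC and 2.66 in HFC per 100 days, and the other 3 have negative lines in both diets.

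Other matrix genes were read from lists of related genes. Of 11 fibrillar and associated collagens 10 had negative slopes, with a median of -0.75 and none called (6 of 11, with a median of -0.27, where all probes of a gene were averaged). Of 14 basement membrane genes 11 had negative slopes, and the proteoglycan agrin (Agrn) was called, with a slope of -0.79 (SE 0.19, adjusted p = 0.0488), a call lost under quantile normalization (0.0785) and with all probes averaged (0.0538). The TGF-beta signal carrier Smad3, called as well, had a slope of -1.38 (SE 0.28, adjusted p = 0.032), which turned to 0.15 under normexp, and the membrane-bound protease gene Mmp15 one of -1.12 (SE 0.27, adjusted p = 0.0488), or -0.36 and not called under normexp. Of the smooth muscle and pericyte markers, 6 of 8 had negative slopes, and the pericyte marker Rgs5 was called at -1.09 (SE 0.22, adjusted p = 0.033). The part of these cells in the matrix slopes was not tested. The calls of Agrn, Smad3, Mmp15 and Rgs5 come from the fit without a time-point term. With the time point as a random block only 2 of all genes were called, and with scan day as a random block also 2, so not all of these calls held.

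The difference between the diets was then asked to change with time, through the product of diet and day. No member was called among the 0% of genes called (0 of 21856). At an unadjusted p under 0.05 limma gave 7 members and 3333 genes (15.2%). The product was positive for 32 of 42 members, where 49.9% of all genes were positive, and its median was 0.58 against -0.0014 over all genes. Under quantile normalization, normexp, a floor and the brightness class 30 to 34 members were positive, and without each time point in turn 27 to 37 were. The 27 was without Day 10, with a median of 0.53. The HFC array of Day 10 had the most flagged spots of all arrays (1079), and the brightness class counts it as dim. HFC minus LFC in Fmod, Bgn and Mgp was lowest on that day. Fmod had the largest product and the smallest p. HFC minus LFC in Fmod was -0.97, -2.01 and 0.92 on Days 6, 10 and 14, and 1.14, -0.33, 0.88, 1.61, 3.42, 1.26 and 3.84 in the samples of Weeks 0, 3, 6, 9, 12, 15 and 18 in that order. The difference was thus negative at both of the earliest time points and positive at each from Week 6 on. Its LFC slope was -1.69 and its HFC slope 1.21, a product of 2.90 (SE 0.74, adjusted p = 0.106). With the brightness class as a term the adjusted p was 0.043, the lowest over its 22 alternatives, which reached 1. That term gave 822 calls among all genes, with Fmod the only member.

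Biglycan (Bgn), the gene of a second proteoglycan of this family, ran from -1.41 at Day 10 to 1.90 at Week 18, with a product of 1.62 (SE 0.43, adjusted p = 0.114). Mgp ran from -1.95 at Day 10 to 1.38 at Week 12 with a product of 1.68 (SE 0.48, adjusted p = 0.133). Aebp1 ran from -1.49 at Week 0 to 1.96 at Week 18 and was positive at every time point from Week 3 on, with a product of 1.66 (SE 0.50, adjusted p = 0.143). Timp2, an inhibitor that also helps MMP14 to activate MMP2, was below 0 from Day 6 to Week 12 and above it at Weeks 15 and 18, with a product of 1.33 (SE 0.41, adjusted p = 0.148). In each of these 5 genes the LFC slope was negative and the HFC slope positive. With array weights Aebp1 and Mgp were called, among 850 of all 21856 genes, and under normexp background correction the Aebp1 product was -0.08. By role, positive products were found for 5 of 5 matricellular genes (4 of 5 under normexp, Aebp1 turning, and with the brightness class) and 5 of 6 small proteoglycans. They were found for 6 of 8 elastic fibre genes (5 of 8 under normexp), 4 of 4 cross-linking genes (2 of 4 under normexp, 3 of 4 under quantile normalization) and 4 of 4 TIMP genes (3 of 4 with the brightness class). Of the adhesive glycoproteins 2 of 6 were positive (3 of 6 under normexp and 4 of 6 with signals raised to a floor). Of the 11 collagens 10 were positive too, with a median of 1.12, and 8 of 10 fibroblast markers, with a median of 0.74. Under normexp these counts were 7 of 11 and 6 of 10, with medians of 0.18 and 0.25. All 8 lymphocyte markers were positive with a median of 1.09 (5 of 8 under normexp), and all 6 erythroid markers with a median of 0.74 (4 of 6 under quantile normalization). What part these cells had in the matrix products was not tested.

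**Figure D3:**
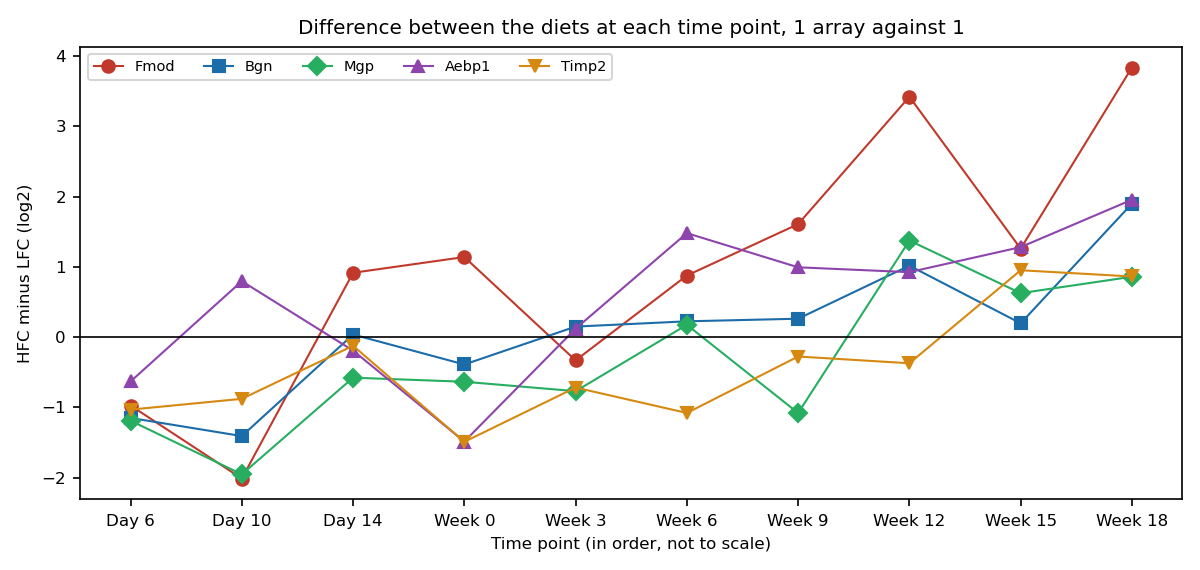
HFC minus LFC (log2) at each of the 10 time points, 1 array against 1, for Fmod, Bgn, Mgp, Aebp1 and Timp2, joined in time order with the axis not to scale. The 5 lines start below 0 at Day 6 and end between 0.86 and 3.84 at Week 18.

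In Weeks 3 to 18 alone, where all 5 groups have arrays and share 1 estimate of the spread, no member was called for HFC against LFC and 0.00915% of genes were (2 of 21856). At an unadjusted p under 0.05 limma gave 3 members and 3125 genes (14.3%), and 27 of 42 members were higher in HFC. Fmod was -6.06 to -3.63 with a median of -4.06 in LFC and -4.65 to -1.03 with a median of -2.33 in HFC, overlapping, with a change of 1.78 (SE 0.59, adjusted p = 0.332), higher in 5 of 6 pairs. Aebp1 was -4.03 to -2.52 with a median of -3.60 in LFC and -3.32 to -1.60 with a median of -2.27 in HFC, with a change of 1.13 (SE 0.50, adjusted p = 0.337), higher in 6 of 6 pairs with overlapping ranges. Fbln5 was not well above background on any of the 6 LFC arrays and was on 2 of the 6 HFC arrays. Its measured means were -6.08 and -4.60 (adjusted p = 0.34). Set against the lowest signal well above background on each LFC array, the HFC mean was 1.6-fold higher. That mean holds mostly signals not well above background, so the figure is not a minimum fold. Under quantile normalization the change of Fbln5 was 0.02. The figure ran from 1.39 to 1.96 without each other time point but was under 1 without Week 12, so it rests on that week. Fbn2 was well above background on no LFC array and on 1 HFC array, that of Week 12 at -1.72, and no fold is given for it (adjusted p = 0.361). Elastin (Eln) changed by 1.13 (SE 0.65, adjusted p = 0.396). Markers of other cells moved with these values, none of them called. All 8 lymphocyte markers were higher in HFC with a median of 1.29 (7 of 8 under quantile normalization), and all 6 erythroid markers with a median of 1.41. All 7 endothelial markers were higher with a median of 0.71 but all 7 were lower with the brightness class as a term, and all 11 skeletal muscle markers were lower with a median of -0.61 (9 of 11 under quantile normalization). Their part in the matrix values was not tested. In these weeks 3 of 6 LFC arrays and 1 of 6 HFC arrays were bright.

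The effect of the lowest dose of KAL-1 on the high-fat diet was read as HF5 against HFC, on the same HFC arrays that serve the other doses. No member was called, and 0% of genes were (0 of 21856). At an unadjusted p under 0.05 limma gave 3 members and 1166 genes (5.33%), and the median change of the members was -0.01, as many as 20 being higher. Aebp1 had the smallest p of the members. It was -3.32 to -1.60 with a median of -2.27 in HFC and -5.56 to -3.18 with a median of -4.30 in HF5, where it was well above background on 2 of 6 arrays. It was lower in 6 of 6 pairs, and the highest HF5 value lay just above the lowest HFC one. The change was -2.07 (SE 0.50, adjusted p = 0.837), and -0.40 under normexp background correction. Fmod changed by -1.36 (SE 0.59, adjusted p = 0.837), Mmp19 by -1.07 (SE 0.58, adjusted p = 0.837) and Ogn by -0.84 (SE 0.48, adjusted p = 0.837), each lower in 5 of 6 pairs, while Efemp2 changed by 0.65 (SE 0.29, adjusted p = 0.837), higher in 5 of 6. All 6 small leucine-rich proteoglycans had changes below 0, from -1.36 for Fmod to -0.0036 for Aspn, which was above 0 under quantile normalization and with the brightness class as a term. The 11 collagens were all below 0 too, with a median of -0.48 (9 of 11 under quantile normalization).

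In HF20 against HFC no member was called and 0% of genes were (0 of 21856), while limma gave 8 members and 7242 genes (33.1%) at an unadjusted p under 0.05. The members were mostly lower in HF20: 12 of 42 were higher (28.6%, against 40.5% of all genes), with a median of -0.39 against -0.23. The median of all genes moved to 0.04 under quantile normalization and to -0.43 under normexp, and 8 to 12 members were higher under quantile normalization, normexp, a floor and the brightness class. The count was 16 with the muscle covariate and ran from 7 without Week 6 to 18 without Week 15. Fmod was -4.65 to -1.03 with a median of -2.33 in HFC and -5.42 to -2.98 with a median of -4.61 in HF20, overlapping, with a change of -1.89 (SE 0.59, adjusted p = 0.118), lower in 5 of 6 pairs. Fbln5 was well above background on no HF20 array and on 2 HFC arrays, with means of -6.61 and -4.60 (adjusted p = 0.118). Set against the lowest signal well above background on each HF20 array, the HFC mean was 1.55-fold higher, a figure under 1 without Week 12. It is not a minimum fold either, and the change of Fbln5 was -0.50 under quantile normalization. Tnc was -3.09 to -0.25 with a median of -2.05 in HFC and -5.23 to -2.65 with a median of -3.86 in HF20, with a change of -2.00 (SE 0.70, adjusted p = 0.118), lower in 6 of 6. Eln changed by -1.51 (SE 0.65, adjusted p = 0.127) and Thbs1 by -2.10 (SE 0.91, adjusted p = 0.129). The matricellular genes were lower for 5 of 5 (4 of 5 under quantile normalization and with the brightness class), and the elastic fibre genes for 6 of 8 (7 of 8 under normexp), none of them called.

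Brightness moved with this comparison, with 4 bright arrays of 6 in HF20 and 1 of 6 in HFC. Within HF20 the 4 bright arrays had a median Tnc of -4.90 and the 2 dim ones of -2.87, and for Thbs1 these medians were -4.52 and -1.75. With the brightness class as a term the changes were -1.60 for Fmod, -0.83 for Tnc, -0.99 for Eln and -0.52 for Thbs1, each with an adjusted p of 0.983. Without Week 3, 5 of 42 members were called (Eln, Fbln5, Fmod, Timp1 and Tnc), among 3396 of 21856 genes. Week 3 holds the only bright HFC array, so that fit left bright arrays in HF20 and none in HFC. Over all 38 arrays the median difference of bright minus dim was -0.59 for the members and -0.34 for all genes tested, with Cyr61 at -3.25, Adamts1 at -2.74, Thbs1 at -2.47 and Timp4 at -2.42, and with Loxl1 at 1.23 and Tnxb at 1.08. Markers of other cells moved as well: all 7 endothelial markers were lower in HF20, with a median of -1.48, and all 11 skeletal muscle markers higher, with a median of 1.77, none of them called. With the brightness class as a term 4 of 7 endothelial markers were lower, with a median of -0.03, and all 11 muscle markers were still higher, with a median of 2.45. Their part in the matrix values was not tested.

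**Figure D4:**
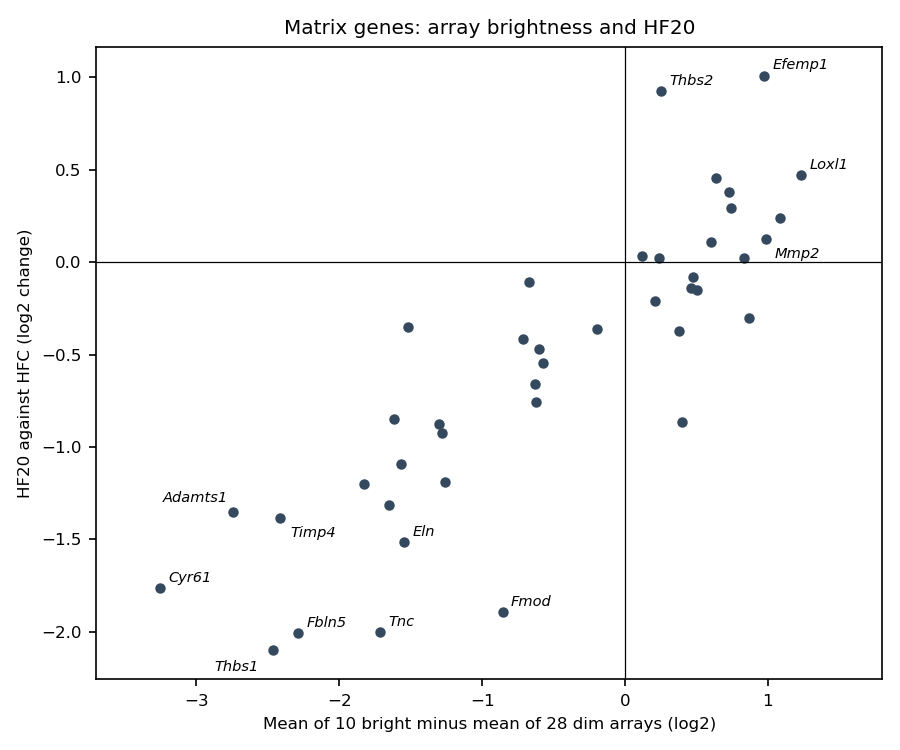
Each point is 1 of the 42 matrix genes, with the mean of the 10 bright minus the mean of the 28 dim arrays on the horizontal axis and the change in HF20 against HFC on the vertical axis (both log2). The axes share arrays, since 4 of the 10 bright arrays are HF20, and Cyr61 and Thbs1 sit at the low end of both while Fmod is low in HF20 with a smaller brightness difference.

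In HF75 against HFC no member was called and 0% of genes were (0 of 21856), and limma gave 2 members and 2010 genes (9.2%) at an unadjusted p under 0.05. Efemp2, a fibulin needed for elastic fibre assembly, was 0.99 to 2.16 with a median of 1.50 in HFC and 1.47 to 3.05 with a median of 2.42 in HF75. It was higher in 6 of 6 pairs with overlapping ranges, a change of 0.82 (SE 0.29, adjusted p = 0.532). Aebp1 was -5.13 to -1.58 with a median of -3.95 in HF75, a change of -1.28 (SE 0.50, adjusted p = 0.532), lower in 5 of 6 pairs. Bgn changed by -0.86 (SE 0.44, adjusted p = 0.555). Under normexp both turned, to 0.17 for Aebp1 and 0.14 for Bgn. Mmp2 changed by -0.98 (SE 0.51, adjusted p = 0.561), or -0.47 without Week 15, and Mmp19 by -1.06 (SE 0.58, adjusted p = 0.566), or -0.50 without Week 18. The HF75 array of Week 3, with its low brown adipocyte markers, was high for most members: 31 of 42 had their highest HF75 value there. Without it 21 members were higher and 21 lower, with a median of 0.0041, where all 6 arrays gave 28 higher and a median of 0.23. The changes without it were 0.61 for Efemp2, -1.71 for Aebp1, -1.04 for Bgn and -1.32 for Mmp2. Of 10 brown adipocyte markers 9 were lower in HF75, with a median of -1.32 over all 6 arrays, and 9 were lower without that array, with a median of -0.50.

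Whether the 3 doses differed from each other was asked with a moderated F test over HF5, HF20 and HF75. Mmp11 and Fbln5 were called, 2 of 42 members, a smaller share than the 13.5% of all genes that were (2960 of 21856). At an unadjusted p under 0.05 limma gave 14 members (33.3%) and 37.5% of genes. Mmp11, the stromelysin whose own substrates include protease inhibitors, was -1.23 to 1.29 with a median of -0.41 in HF5, -2.75 to -0.29 with a median of -1.52 in HF20 and -0.52 to 1.16 with a median of 0.07 in HF75. The HF20 values reached lowest, and the highest of them lay within both other ranges. HF20 minus HF5 was -1.42 and HF75 minus HF20 was 1.81 (SE 0.49 each, adjusted p of the F test = 0.0407), so the middle dose was lowest and the levels did not follow the dose. Fbln5 had an adjusted p of 0.0348, with means of -4.73 in HF5, -6.61 in HF20 and -3.80 in HF75. It was well above background on no HF5 or HF20 array and on 3 HF75 arrays. Set against the lowest signal well above background on each HF20 array, its HF75 mean was 2.69-fold higher (1.97 to 4.26 without each time point). That mean includes arrays where Fbln5 was not well above background, so the figure is not a minimum fold. No fold is given for the other pairs.

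Timp4, Cyr61 and Aebp1 followed with adjusted p of 0.0503, 0.0545 and 0.0556. Timp4 averaged 4.84 ± 0.37 (SD, n = 6) in HF5, 2.83 ± 1.59 (SD, n = 6) in HF20 and 4.39 ± 0.88 (SD, n = 6) in HF75. Cyr61 averaged 4.76 ± 0.74 (SD, n = 6), 2.21 ± 1.72 (SD, n = 6) and 4.38 ± 0.67 (SD, n = 6) in the same order. Aebp1 was the exception, with HF20 highest: HF20 minus HF5 was 1.70 and HF75 minus HF20 was -0.91. With the brightness class as a term no member was called, with an adjusted p of 0.315 for Fbln5 and 0.448 for Mmp11, and HF20 is the dose with 4 bright arrays. Both calls were also lost without the HF75 array of Week 3 (adjusted p = 0.0657 and 0.0711) and when Week 3, 6, 12 or 15 was left out. Over the alternatives the adjusted p of Fbln5 ran from 0.00107 to 0.315 and that of Mmp11 from 0.00374 to 0.448, with 9 of 19 and 10 of 20 under 0.05. HF75 was higher than HF5 for 33 of 42 members, and for 15 without the HF75 array of Week 3, where the median moved from 0.17 to -0.17.

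**Figure D5:**
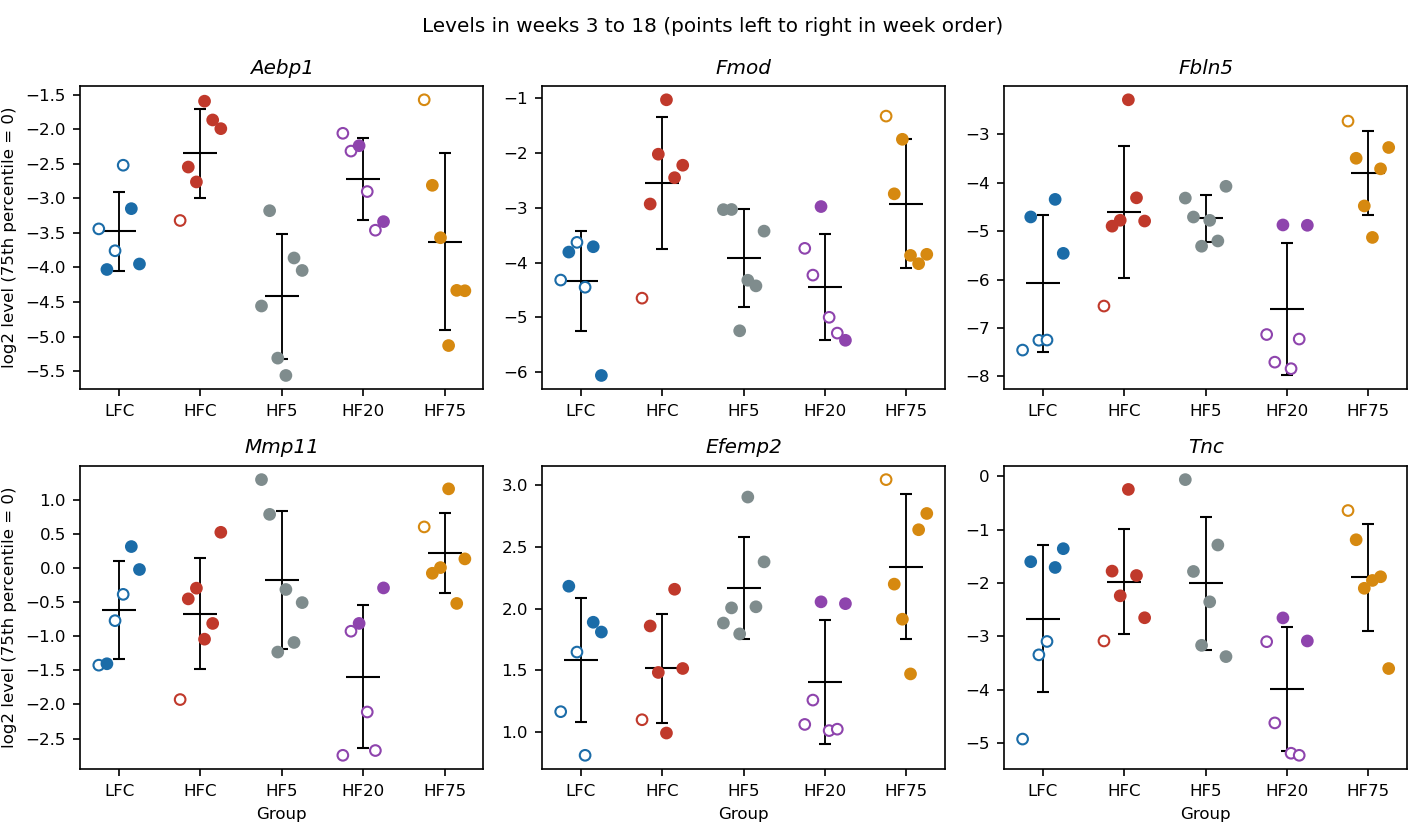
Levels (log2, with the 75th percentile of the array at 0) of Aebp1, Fmod, Fbln5, Mmp11, Efemp2 and Tnc in Weeks 3 to 18, 1 point per array in week order from left to right within each of the 5 groups, with mean and SD bars and bright arrays as open points. Mmp11 has its lowest mean in HF20 at -1.59, and Aebp1 its lowest in HF5 at -4.42.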

How the data were processed

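RNA from brown adipose tissue was labelled with Cy3 and hybridised to Agilent 1-colour mouse arrays. Each array file holds the scanner output of Feature Extraction (version 10.5.1.1 per the file headers and 9.1 in the submitters' processing notes), and the deposited values used here are processed signal intensity per spot, background-subtracted by that software. The series table, in which the authors give log2 values relative to LFC, was not used because those columns hold the study's own comparisons. Control spots and outlier flags were left out, which removed 4 values of the matrix genes (Efemp2, Serpinh1 and Mmp2 on the HFC array of Day 10, Sparc on the LFC array of Day 14). Spots of a probe were averaged, log2 intensity was taken minus the 75th percentile of the array, and each gene name was represented by its probe with the highest mean. A gene was kept when at least 6 of the 38 arrays had it well above background, which left 21856.

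Comparisons were fitted in limma 3.58.1 (R 4.3.3 and the data.table package, version 1.17.8) with Benjamini-Hochberg adjustment at 0.05. The time point was a block in the diet comparison and in the diet by day product, since arrays of a time point share age and sampling. The trend used days, with Week 0 set at day 14. Comparisons in Weeks 3 to 18 used 30 arrays of 5 groups. The t-test over 3 arrays of a time point that the methods describe could not be made with 1 array each, and its form over time points is an alternative. Alternatives were quantile normalization, normexp background correction with an offset of 50, other filters on dim probes, a floor, the mean of probes, brightness class (75th percentile above 600), array weights, slide or scan day as a random block, a covariate for skeletal muscle, other samples, each time point left out and, added after seeing the data, the time point as a random block for the trend. The number of arrays limits the precision. In each comparison the 5 members with the smallest p are named, and for related gene lists the 2 with the smallest p. The members and lists were chosen with earlier results of these data known. The fits were tested on simulated data with independent noise and no time-point, brightness or background effects, so that test covers the code and not those features of the arrays. Array names were matched to RefSeq for promoters, 40 by symbol and 2 (Ctgf and Cyr61) by synonym.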

Additional observations from a re-analysis of the deposited data

Results flagged for a closer look

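Within groups of 6 or 10 arrays the highest and lowest values of 22 members were set against the rest of their group, in 110 groups, and 3 stood apart by Dixon's criterion, where chance flags about 1 in 20 groups. Mmp19 in HF20 was -5.42 at Week 18, with the nearest other array at -3.38. Mmp2 in LFC was -2.29 at Week 18, with the nearest other array at -0.55. Fbn1 in HF75 was 2.12 at Week 3, with the nearest other array at -0.55, on the array with the lowest brown adipocyte and the highest fibroblast marker sums. Their part in that value was not tested.

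The doses of KAL-1 differed from each other for Fbln5 (adjusted p = 0.0348, limma's F test) and Mmp11 (adjusted p = 0.0407). The mean of Mmp11 was lowest in HF20, where 4 of 6 arrays were bright. Fbln5 was well above background on 3 of the 18 arrays of the doses, all in HF75.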

How the results depend on the processing

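No matrix gene was called under any alternative for HFC against LFC over all time points (26 alternatives), or for HFC against LFC in Weeks 3 to 18, HF5 against HFC or HF75 against HFC (20 each). For the trend, 1 member was called, among 265 of the 21856 genes tested. The count was 3 under quantile normalization (926 genes), and 2 under normexp (505) and with a floor (523). With the brightness class as a term it was 4 (Eln, Fbn1, Mmp3 and Postn, among 2015 genes). It was 0 without a filter (25 genes), with the mean of probes (141) and with scan day as a random block (2). With probes well above background on every array it was 0 as well (28 members tested, 50 genes called). It was also 0 with the muscle covariate (148), on log2 of days (15) and for late against early arrays (18). Within HFC alone 1619 genes were called with no member among them, and within LFC alone 0 genes were called. Leaving out each time point gave 0 to 1, with Mmp3 kept without Day 14, Postn called without Day 6 and Fbn1 without Week 15. For the product of diet and day, 0 became 1 with the brightness class (Fmod, among 822 genes) and 2 with array weights (Aebp1 and Mgp, among 850 genes). It was 0 without each time point in turn. For HF20 against HFC, 0 became 10 with array weights (among 6277 genes), and 0 to 5 without each time point, 5 being without Week 3 (among 3396). For the doses, 2 members were called, among 2960 genes. The count was 1 under quantile normalization (2368 genes), 4 with the mean of probes (3045) and 6 with a floor (4420). It was 5 with probes well above background on every array (25 members tested, 3780 genes called). It was 8 with the doses alone (4153), 11 with slide as a block (6540) and 18 with array weights (8890). The calls over all genes thus rose as well. No gene at all was called under normexp, without a filter, with the brightness class or with the muscle covariate. The same held without the HF75 array of Week 3. Leaving out a time point, the member count ran from 0 (without Week 3, 6, 12 or 15, with 0 genes called) to 8 (without Week 9, among 5494).

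The time point pairs arrays by sampling. Without that replicate block the doses gave 2 members, among 1300 genes, and the other comparisons fitted with it gave 0. The trend was fitted without it. For the trend, with the time point as a random replicate block, a choice made after seeing the data, 0 members were called and the adjusted p of Mmp3 was 0.124. Over all genes the calls without each time point ran from 7 to 466 for the trend, 0 to 384 for the product, 0 to 3396 for HF20 and 0 to 5494 for the doses. Under normexp the direction turned for Aebp1 in the product (-0.080) and in HF75 (0.17), for Bgn in HF75 (0.14) and for Mmp11 in HF75 against HF5 (-0.0098), and Cyr61 turned in HF75 against HF5 with the brightness class (0.23). The causes were not tested. Dim probes limit Fbn2, Fbln5, Mmp19, Fmod and Aebp1, whose signals lie near background on many arrays.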
